A study of Mus musculus with 10 samples.

Results

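Fc receptors bind the constant part of antibodies and so connect antibody-coated particles to the cells that take them up. The 6 genes described here, Fcgr1, Fcgr2b, Fcgr3, Fcgr4, Fcer1g and Fcgrt, were chosen by gene symbol from a deposited table of 16936 protein-coding genes, and all 6 were found in it. They comprise 3 activating IgG receptors (Fcgr1, Fcgr3 and Fcgr4), the signalling chain that these share (Fcer1g), 1 inhibitory IgG receptor (Fcgr2b) and 1 receptor that transports IgG (Fcgrt). RNA was sequenced from mouse bone marrow-derived macrophages, cultured from marrow with the cytokine GM-CSF (50 ng/mL) over 7 days. The 5 samples of the untreated group received no further treatment, and the 5 samples of the PLG group were exposed for 24 h to PLG, which the series describes as human plasminogen, the precursor of the protease plasmin. The sources used here do not give the strain, genotype or age of the mice, and both groups were grown in the same cytokine. No vehicle or mock preparation is named for the untreated group, so a response to plasminogen and a response to other components of the preparation cannot be told apart. The labels number the replicates 1 to 5 without tying them to a mouse or a culture, so each p-value below reflects only how these samples vary, which may be technical variation.

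Activating Fc receptors hold the ligand-binding chain, and signal through the Fcer1g product, whose immunoreceptor tyrosine-based activation motif (ITAM) is phosphorylated by Src family kinases and then recruits the kinase Syk. The Fcgr2b product carries an inhibitory motif (ITIM) in its own tail, recruits phosphatases such as that encoded by Inpp5d, and raises the threshold at which immune complexes activate a macrophage or dendritic cell. The Fcgrt product, a relative of MHC class I heavy chains, pairs with the B2m product, binds IgG in acidic endosomes, and returns it to the surface or delivers it for antigen presentation.

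In RefSeq, start sites with promoter windows on GRCm38.p6 were found for all 6 genes. Each window runs from 250 bases before the start to 50 after it, and the stretch from 120 bases before to 10 after the start is shown for the 3 activating receptors and the inhibitory receptor, the 2 classes the comparison sets against each other. Capitals mark matches to 2 short motifs and 1 shared run, searched on both strands.
Fcgr1 (chr3:96293960-96294089, minus strand): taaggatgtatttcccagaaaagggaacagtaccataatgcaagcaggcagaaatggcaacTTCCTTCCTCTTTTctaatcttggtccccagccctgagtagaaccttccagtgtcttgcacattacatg
Fcgr3 (chr1:171059394-171059523, minus strand): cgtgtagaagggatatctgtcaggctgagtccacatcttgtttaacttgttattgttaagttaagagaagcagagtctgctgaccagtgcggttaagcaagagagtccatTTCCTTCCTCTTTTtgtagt
Fcgr4 (chr1:171018806-171018935, plus strand): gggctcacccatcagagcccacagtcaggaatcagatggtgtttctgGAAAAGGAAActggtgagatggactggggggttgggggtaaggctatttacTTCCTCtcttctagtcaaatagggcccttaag
Fcgr2b (chr1:170976062-170976191, minus strand): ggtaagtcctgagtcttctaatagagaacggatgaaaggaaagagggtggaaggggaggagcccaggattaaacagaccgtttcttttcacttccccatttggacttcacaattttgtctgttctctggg

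The windows of all 3 activating receptors held GAGGAA, the core letters bound by the myeloid factor PU.1, read on the other strand as TTCCTC. The match began 55 bases before the start in Fcgr1, 6 bases before it in Fcgr3 and 22 bases before it in Fcgr4. In Fcgr1 and Fcgr3 it lay inside the run TTCCTTCCTCTTTT of 14 bases, the longest run the windows of these genes share, which was picked after the windows had been read and occurs in 5 of all 32851 RefSeq windows (0.0152%). The Fcgr4 window also held GAAA, any 2 bases and GAAA again, a core that interferon regulatory factors bind, 73 bases before the start as GAAAAGGAAA. GAGGAA was present in 28.3% of all windows and the spaced pair of GAAA in 3.44%. The windows of Fcgr2b, Fcer1g and Fcgrt held no match to any of these. A match is a description of the letters, and no binding was measured. The Fcgr3 window shown is the first of 2 overlapping RefSeq windows, and its start lies inside the longer gene model of the table. The Fcgr2b window also lies inside its gene model, with an outer end at base 170976321 where the model reaches base 170976547. Sequence before that end of the Fcgr2b model was not searched, so the lack of a match does not cover it.

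The genes Fcgr2b, Fcgr4 and Fcgr3 lie side by side within 106 kb of chromosome 1, and Fcer1g lies 165 kb beyond Fcgr3. Fcgr1 is on chromosome 3 and Fcgrt on chromosome 7. Activating Fcgr3 and inhibitory Fcgr2b are the closest pair in sequence. Their coding sequences in GENCODE M21 were identical at 85.9% of 781 aligned bases, against 60.5% to 66.2% for the other 5 pairs of IgG receptors. The longest identical stretch, 129 bases from coding base 263 of Fcgr3 and 278 of Fcgr2b, codes for extracellular sequence. It is shown because a read that falls wholly inside it matches both genes.
Fcgr3 and Fcgr2b: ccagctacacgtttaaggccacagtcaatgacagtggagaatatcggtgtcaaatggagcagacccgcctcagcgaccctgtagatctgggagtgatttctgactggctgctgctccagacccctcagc

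Of the 1733 different 50-base words in annotated Fcgr3 transcripts, 166 (9.58%) also occurred in Fcgr2b transcripts, and none occurred in another gene. For Fcgr2b, 395 of 5685 words (6.95%) occurred elsewhere, including those 166. No word of Fcgr1, Fcgr4, Fcer1g or Fcgrt occurred in another gene. The sources used here do not say how the counting treated reads that match several genes, so values of Fcgr3 and Fcgr2b are uncertain to the extent of these shared stretches. An antisense gene overlaps Fcgr2b (Gm38204) and another overlaps Fcgrt (Gm45669). Searched on both strands, 107 of the Fcgr2b words occurred in Gm38204, and no Fcgrt word occurred in Gm45669. Since the strand setting of the counting is not given either, reads in the sequence that Fcgr2b shares with Gm38204 cannot be told apart. Shared stretches under 50 bases were not sought.

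Expression was given as FPKM, reads scaled by gene length and by library size. Levels of different genes can be set side by side only as far as that length fits their transcripts. It was 5790 bases for Fcgr2b and 1736 for Fcgr3, with coding parts of 1020 and 801 bases. In untreated sample 1, Fcgr3 had 20566 reads and Fcgr2b 12226. The size of a ratio between genes thus depends on the lengths used. The reads on the table's genes, recovered from the steps between low values, numbered 28426102 to 64214564 per sample, and 1 read on a gene of 1 kb was worth 0.0141 to 0.0313 FPKM. In 3 samples (untreated 2, PLG 3 and PLG 4), 3 repeat-like gene models (Gm10800, Gm10801 and Gm21738) took 0.116% to 0.702% of the reads, against 1.90% to 5.23% in the others, and values without those samples are given where a result rests on them. The labelled cell type was checked against its markers. All 6 macrophage markers were expressed, with a summed level of 5831 to 7335 FPKM in untreated and 2549 to 2762 FPKM in PLG samples, of which Lyz2 made up most. Between the groups 1 of these markers rose (Adgre1) and 5 fell (Csf1r, Cd68, Lyz2, Itgam and Mertk). The summed level of 6 dendritic cell markers was 295 to 338 FPKM in untreated and 668 to 738 FPKM in PLG samples. The rise of this sum came from Ccr7, which was higher (38.1 ± 10.8 and 542 ± 27.1 FPKM). Zbtb46 was also higher (1.71 and 6.40 FPKM), and Itgax was lower (270 ± 14.9 and 156 ± 6.59 FPKM). Flt3 (0.113 and 2.097 FPKM) and Cd209a (2.995 and 0.0142 FPKM) reached the level needed for testing in 1 group only, so they had to differ and are given as values. The 5 B cell markers, a cell type rich in Fcgr2b, summed to at most 0.893 FPKM in any sample, and the 7 T and NK cell markers to at most 0.666 FPKM. The 7 measured neutrophil markers summed to 11.02 to 20.6 FPKM in untreated and 17.5 to 26.9 FPKM in PLG samples. Of these, S100a8 was higher in PLG samples (7.07 ± 1.01 and 11.9 ± 2.52 FPKM). Camp (0.254 and 2.399 FPKM) reached the level needed for testing in PLG samples only and is given as values. The groups overlapped for S100a9, Ngp and Ltf. Ly6g and Mpo were at 0 in all untreated samples, with PLG means of 0.095 and 0.0154 FPKM. The eosinophil markers summed to 8.19 to 10.8 FPKM in untreated and 2.02 to 3.93 FPKM in PLG samples. The fall of this sum was that of Siglecf (9.48 ± 0.903 and 1.35 ± 0.217 FPKM). Prg2 (0.113 ± 0.252 and 1.11 ± 0.849 FPKM) and Epx (0.0612 ± 0.108 and 0.336 ± 0.176 FPKM) had higher means in PLG samples. Their groups overlapped, and neither gene was tested. Ccr3 and Il5ra read at most 0.0416 FPKM in either group mean. The 7 measured markers of mast cells and basophils, which also carry Fcer1g, summed to 9.48 to 18.5 FPKM in untreated and 11.4 to 14.8 FPKM in PLG samples. Kit made up most of this sum and was lower in PLG samples (10.4 ± 2.77 and 7.65 ± 0.770 FPKM). Gata2 was higher (1.998 ± 0.814 and 3.31 ± 0.372 FPKM). Cpa3 did not pass the test (1.94 ± 1.34 and 2.56 ± 0.742 FPKM). The groups overlapped for Kit, Gata2 and Cpa3. Mcpt8, Mcpt4, Tpsb2 and Ms4a2 read at most 0.075 FPKM in either group mean. The part of these markers in the differences below was not tested. In bulk RNA fewer cells of a type and less RNA per cell cannot be told apart.

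With PLG the 3 activating receptors did not move together. Fcgr3, by far the most abundant of them, fell 1.52-fold and the scarce Fcgr4 fell 2.13-fold, while Fcgr1 did not pass the test. Their signalling chain Fcer1g rose 1.295-fold, and the transport receptor Fcgrt fell 3.61-fold. The inhibitory receptor Fcgr2b was 1.10-fold higher, a difference that passed the test but was lost under several other settings and changed sign under quantile normalization. Of the 6 genes 5 thus passed (2 higher, 3 lower), where 60.4% of the 9997 genes tested passed, 29.1% higher and 31.3% lower. The count of 5 in 6 is therefore not read as particular to these genes. Genes were tested on log2(FPKM + 1) with limma, with p-values adjusted by Benjamini and Hochberg over all genes tested and a threshold of 0.05. The folds just given are ratios of mean FPKM. Log2 fold changes, here and below, are differences on log2(FPKM + 1), which are smaller than the ratio of means for low genes such as Fcgr4 and Fcgrt.

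**Figure D1:**
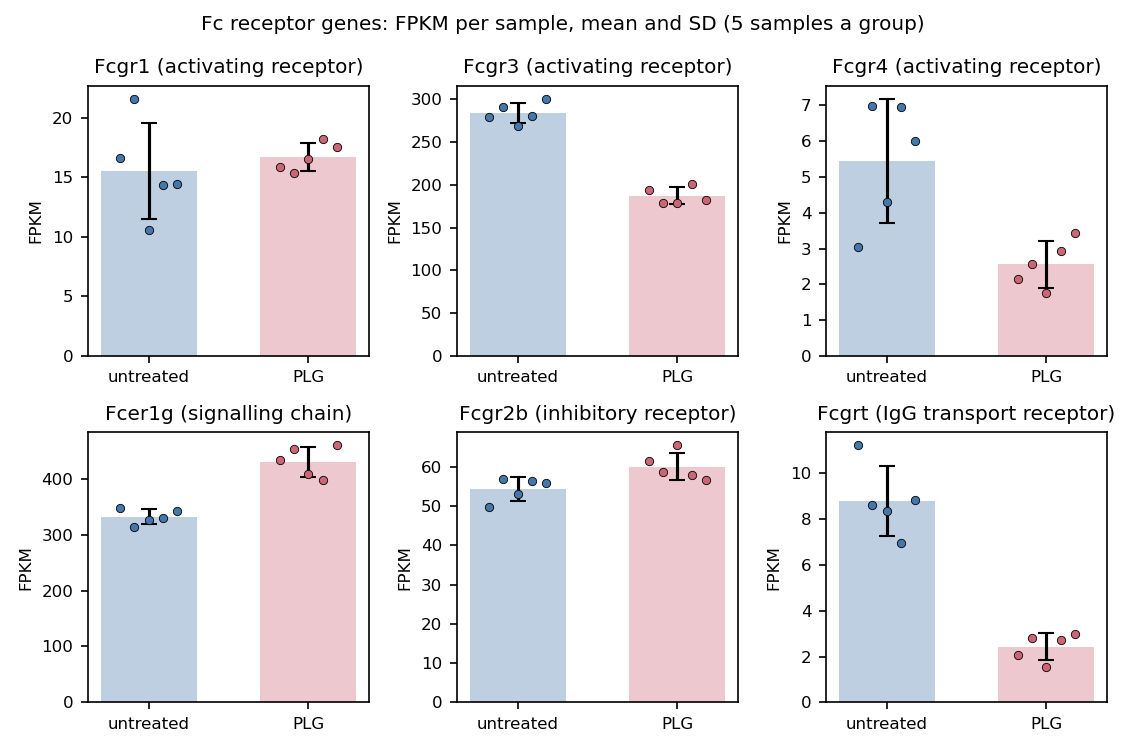
FPKM of the 6 Fc receptor genes in each sample (points, left to right replicates 1 to 5), with the group mean (bar) and SD (line), in 5 untreated (blue) and 5 PLG (red) samples on linear axes that start at 0. The groups did not overlap for Fcgr3, Fcer1g and Fcgrt; for Fcgr1 the widest spread was in the untreated samples.

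Fcgr3 (ENSMUSG00000059498.13, chr1:171051174-171064935) encodes the low-affinity activating receptor of macrophages. Its FPKM in untreated samples 1 to 5 were 279, 291, 269, 281 and 301, and in PLG samples 194, 179, 179, 201 and 183. Every PLG sample lay below every untreated sample. The mean fell from 284 ± 12.0 to 187 ± 9.83 FPKM (SD, n = 5 each), and on log2(FPKM + 1) the difference was -0.60 (SE 0.0480, limma, Benjamini-Hochberg adjusted p = 1.07e-07). The two-sided exact permutation test over all assignments of the samples gave p = 0.00794, the smallest that 5 against 5 samples allow. Between 11759 and 22455 reads stood behind each value. Among the tested genes the mean level of Fcgr3 was at percentile 98.9.

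Fcgr4 (ENSMUSG00000059089.4, chr1:171018920-171029761) encodes an activating receptor of intermediate affinity found on monocytes, macrophages and neutrophils in mice. It was the least abundant member in untreated samples, with FPKM of 3.04, 6.97, 4.29, 6.95 and 6.003, and it read 2.14, 2.56, 1.75, 2.93 and 3.42 FPKM in PLG samples. The groups overlapped in 1 place, where untreated sample 1 lay under PLG sample 5. The mean fell from 5.45 ± 1.74 to 2.56 ± 0.655 FPKM, and on log2(FPKM + 1) the difference was -0.83 (SE 0.188, limma, Benjamini-Hochberg adjusted p = 0.00171), with an exact permutation p of 0.0159. Only 83 to 310 reads stood behind each value. Without untreated 2, PLG 3 and PLG 4 the log2 fold change was -0.68 (limma, Benjamini-Hochberg adjusted p = 0.0187).

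Fcgr1 (ENSMUSG00000015947.10, chr3:96282909-96293969) encodes the high-affinity activating receptor, which binds monomeric IgG. Its FPKM in untreated samples were 16.6, 21.6, 10.5, 14.35 and 14.5, and in PLG samples 15.9, 15.4, 16.6, 18.2 and 17.5. The PLG samples all lay within the range of the untreated ones. The means were 15.5 ± 4.04 and 16.7 ± 1.16 FPKM, with a log2 difference of 0.13 (SE 0.135, limma, Benjamini-Hochberg adjusted p = 0.415; exact permutation p = 0.484). The coefficient of variation was 26.0% in untreated and 6.95% in PLG samples, although 983 to 3211 reads stood behind each value. Untreated 2 was the highest sample, and without it the log2 difference was 0.26 and passed (limma, Benjamini-Hochberg adjusted p = 0.0492), so this call rests on 1 library.

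Fcer1g (ENSMUSG00000058715.11, chr1:171229572-171234365) encodes the common gamma chain, through which all 3 activating receptors signal. It was the most abundant member in both groups, with FPKM of 348, 314, 327, 331 and 343 in untreated and 433, 453, 408, 398 and 459.6 in PLG samples. Every PLG sample lay above every untreated sample. The mean rose from 332 ± 13.4 to 430.2 ± 27.0 FPKM, and on log2(FPKM + 1) the difference was 0.37 (SE 0.0519, limma, Benjamini-Hochberg adjusted p = 2.95e-05), with an exact permutation p of 0.00794. Quantile normalization reduced the log2 fold change to 0.09 (adjusted p = 0.171), the 1 alternative of 24 in which the call was lost.

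Fcgr2b (ENSMUSG00000026656.15, chr1:170958617-170976547) encodes the only inhibitory IgG receptor of the mouse. Its FPKM were 49.7, 57.0, 53.0, 56.4 and 55.8 in untreated samples and 61.4, 58.7, 65.5, 58.0 and 56.8 in PLG samples. PLG sample 5 lay under untreated sample 2, and the other 4 PLG samples lay above all untreated ones. The means were 54.4 ± 3.03 and 60.1 ± 3.48 FPKM, and on log2(FPKM + 1) the difference was 0.14 (SE 0.0530, limma, Benjamini-Hochberg adjusted p = 0.0345; exact permutation p = 0.0159). Of 24 alternatives 9 lost this call, and quantile normalization turned it to -0.03 (adjusted p = 0.669). With the replicate number as a block the adjusted p was 0.0799, and without untreated 2, PLG 3 and PLG 4 it was 0.0806. The difference of Fcgr2b is thus not firmly separated from the spread.

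Fcgrt (ENSMUSG00000003420.8, chr7:45092990-45103851), the neonatal Fc receptor heavy chain, had the largest change of the 6. Its FPKM were 11.2, 8.61, 8.35, 6.96 and 8.82 in untreated and 2.07, 2.83, 1.56, 2.72 and 2.99 in PLG samples. All PLG samples lay far below the lowest untreated sample. The mean fell from 8.79 ± 1.53 to 2.43 ± 0.599 FPKM, and on log2(FPKM + 1) the difference was -1.52 (SE 0.135, limma, Benjamini-Hochberg adjusted p = 3.23e-07), with an exact permutation p of 0.00794. Reads behind each value numbered 124 to 1001.

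Of the 6 genes 3 had groups that did not overlap, 1 higher (Fcer1g) and 2 lower (Fcgr3 and Fcgrt), where 47.2% of the genes tested did not overlap, 22.7% higher and 24.5% lower. By mean FPKM, which depends on the gene lengths used, the order in untreated samples was Fcer1g, Fcgr3, Fcgr2b, Fcgr1, Fcgrt and Fcgr4. The ranges of Fcgr1 and Fcgrt overlapped there, as did those of Fcgrt and Fcgr4, and all other neighbours in the order were apart. In PLG samples Fcgr4 and Fcgrt exchanged places with overlapping ranges, and the rest of the order stayed.

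**Figure D2:**
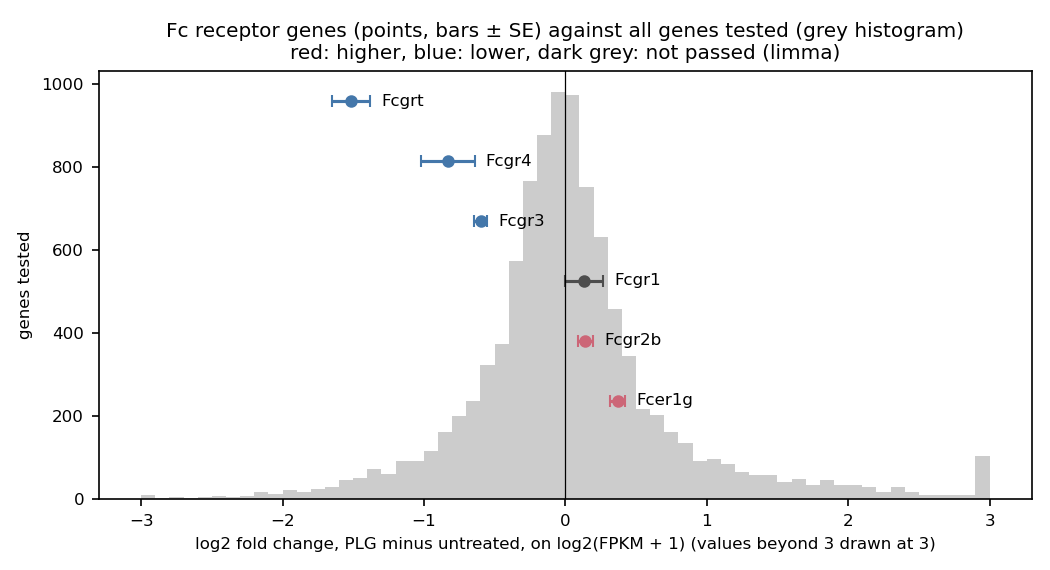
Log2 fold change of each Fc receptor gene (points; bars show the SE of the fit; red higher, blue lower, dark grey not passed) over the distribution of all 9997 genes tested (grey histogram, left axis). The height of the points has no meaning. Fcgrt at -1.52 lies beyond the lowest 10% of genes, which ends at -0.73, as does Fcgr4 at -0.83, and Fcgr2b at 0.14, which changes sign under quantile normalization, lies near the centre.

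Activating receptors were then set against the inhibitory one within each sample, a ratio that does not depend on how samples were scaled to each other by a common factor. The summed FPKM of Fcgr1, Fcgr3 and Fcgr4 was 6.01, 5.60, 5.35, 5.36 and 5.75 times that of Fcgr2b in untreated samples and 3.45, 3.36, 3.02, 3.83 and 3.59 times in PLG samples. The groups did not overlap, and the mean ratio was 5.61 ± 0.277 in untreated and 3.45 ± 0.301 in PLG samples, 1.63-fold lower. This ratio is a description of the members, with no test, and its size depends on the gene lengths behind the FPKM. It followed Fcgr3, which made up 93.2% of the activating sum in untreated and 90.7% in PLG samples.

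Taken singly, the 3 activating receptors differed in this ratio. Fcgr3 stood at 5.23 ± 0.261 times Fcgr2b in untreated and 3.13 ± 0.266 times in PLG samples. Fcgr4 stood at 0.0990 ± 0.0272 and 0.0432 ± 0.0131, 2.29-fold lower, with the lowest untreated sample at 0.0611 and the highest PLG sample at 0.0603. Fcgr1 stood at 0.285 ± 0.0711 and 0.279 ± 0.0294 with overlapping groups. The sum without Fcgr3 stood at 0.384 ± 0.0792 and 0.323 ± 0.0414 times Fcgr2b, and there the groups overlapped too. Fcgr1 made up 5.06% of the activating sum in untreated samples (3.71% to 6.77%) and 8.10% in PLG samples (7.51% to 8.60%), so its share was higher in every PLG sample while its own level did not pass the test.

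The activating sum was then set against the chain. Per unit of Fcer1g the activating sum was 0.859, 1.017, 0.869, 0.915 and 0.937 in untreated samples and 0.489, 0.436, 0.485, 0.558 and 0.443 in PLG samples. The groups did not overlap, and the mean was 1.91-fold lower with PLG. Fcgrt and its partner B2m also went in opposite directions. B2m rose from 2537 ± 116 to 4214 ± 105 FPKM, and Fcgrt per 1000 B2m was 3.45 ± 0.471 in untreated (2.84 to 4.16) and 0.580 ± 0.153 in PLG samples (0.359 to 0.713), 5.95-fold lower. B2m also serves all MHC class I heavy chains, so its level is not that of the Fcgrt complex.

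**Figure D3:**
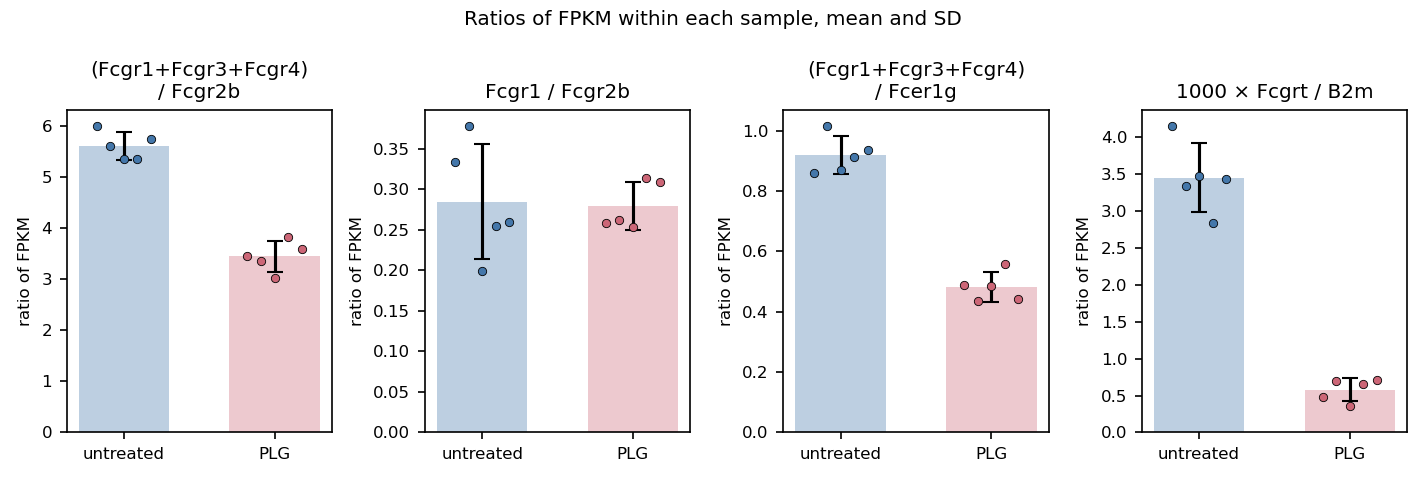
Ratios of FPKM within each sample (points), with mean (bar) and SD (line), in 5 untreated (blue) and 5 PLG (red) samples on axes that start at 0. From left to right the panels show the activating sum over Fcgr2b, Fcgr1 over Fcgr2b, the activating sum over Fcer1g, and 1000 times Fcgrt over B2m; only Fcgr1 over Fcgr2b overlapped between the groups.

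Beyond the members, 13 of 15 listed genes for other Fc-binding and Fc receptor-like proteins were in the table, and 4 of these were expressed enough to be tested. Of the 4, 3 rose and 1 fell, against 29.1% and 31.3% of all genes tested. Their median log2 fold change was 0.73, where that of all genes tested was -0.02. B2m was among those that rose. Trim21, a cytosolic antibody receptor, rose from 4.13 ± 0.704 to 8.35 ± 1.14 FPKM (log2 fold change 0.87, limma, Benjamini-Hochberg adjusted p = 1.34e-05). Fcrlb rose from 2.97 ± 1.15 to 5.49 ± 1.32 FPKM (0.73, limma, Benjamini-Hochberg adjusted p = 0.00258), with groups that overlapped. Fcrls, an Fc receptor-like gene known as a microglial marker, fell from 9.90 ± 1.15 to 1.40 ± 0.374 FPKM (-2.19, limma, Benjamini-Hochberg adjusted p = 1.61e-09).

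Of the 28 genes that carry the signal from ITAM receptors, 11 rose, 11 fell and 6 did not pass, where 60.4% of all genes tested passed in either direction, and the median change was 0.00 on the log2 scale. Kinases at the start of the pathway went both ways. Syk, which docks on the phosphorylated Fcer1g chain, rose from 52.1 ± 1.005 to 91.3 ± 3.96 FPKM (log2 fold change 0.80). Src rose from 12.2 ± 0.869 to 47.5 ± 1.66 FPKM (1.88), and Malt1, a protease and scaffold of the branch to NF-kB, from 17.7 ± 1.73 to 42.3 ± 1.23 FPKM (1.22). Lyn, another Src family kinase, named here after its values were seen, fell from 40.8 ± 3.85 to 26.8 ± 0.697 FPKM (-0.59, limma, Benjamini-Hochberg adjusted p = 1.35e-06). Lat2, a membrane adaptor, fell from 33.3 ± 2.52 to 9.05 ± 0.636 FPKM (-1.77). Pik3cd, a catalytic subunit of PI3-kinase, fell from 85.3 ± 6.81 to 28.6 ± 2.42 FPKM (-1.54), and the kinase Tec fell from 33.3 ± 0.928 to 11.7 ± 0.453 FPKM (-1.44). The exchange factor Vav1, at 39.7 ± 2.35 and 40.0 ± 3.003 FPKM, and the adaptor Shc1, at 26.5 ± 1.53 and 25.8 ± 1.81 FPKM, did not pass. The limma adjusted p (Benjamini-Hochberg) of the other 6 genes said here to rise or fall was at most 1.34e-09.

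Of the 14 phosphatases and regulators that act after ITIM receptors, 4 rose, 7 fell and 3 did not pass, against 29.1% higher and 31.3% lower over all genes tested. Their median was -0.09. Inpp5d, the lipid phosphatase that Fcgr2b recruits, fell from 36.5 ± 1.43 to 19.8 ± 0.593 FPKM (log2 fold change -0.85, limma, Benjamini-Hochberg adjusted p = 1.52e-09). Its relative Inppl1, at 13.3 FPKM in both groups, and the phosphatase Ptpn11, at 20.4 ± 1.48 and 20.8 ± 0.676 FPKM, did not pass. The adaptor Dok2 fell from 26.3 ± 2.15 to 9.91 ± 0.691 FPKM (-1.32), while its relative Dok1 rose from 23.9 ± 2.06 to 48.9 ± 3.42 FPKM (1.004). Csk, which holds Src kinases inactive, fell from 39.4 ± 2.78 to 28.6 ± 1.36 FPKM (-0.45). The ubiquitin ligase Cblb rose from 5.03 ± 0.550 to 16.4 ± 1.33 FPKM (1.53). The largest limma adjusted p (Benjamini-Hochberg) of these 4 changes was 8.99e-06.

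Fcer1g also serves C-type lectins, and of 10 listed partners and other signalling adaptors 7 reached the level needed for testing. Of these, Cd247 did so in PLG samples only and is left out of the count. Of the other 6, 2 rose, 2 fell and 2 did not pass, where 60.4% of all genes tested passed, and their median log2 fold change was 0.046. Clec4e, a receptor for mycobacterial glycolipid and dead cells, rose from 10.5 ± 1.26 to 548 ± 29.8 FPKM (5.58), and its partner Clec4d from 88.7 ± 4.38 to 184 ± 15.9 FPKM (1.04). Clec4n, a fungal receptor and the most abundant of the list, stood at 814 ± 56.5 and 891 ± 74.8 FPKM and did not pass. Tyrobp, the other main ITAM adaptor of macrophages, fell from 326 ± 36.7 to 144 ± 16.8 FPKM (-1.17), against the direction of Fcer1g. Lilra6 fell from 5.26 ± 0.981 to 1.01 ± 0.349 FPKM (-1.65). Its PLG mean lay at the 1 FPKM needed for testing, which not every PLG sample reached. Lilra6 is kept in the count, although the untreated samples alone could bring it into the test. Cd247, the chain of T cell receptors, read 0.0534 ± 0.0472 FPKM in untreated and 1.21 ± 0.186 FPKM in PLG samples, while the mean of every T and NK cell marker was under 0.5 FPKM in both groups. The limma adjusted p (Benjamini-Hochberg) of the 4 changes was at most 1.25e-07. Hcst, at 5.37 ± 0.832 and 5.25 ± 1.05 FPKM, did not pass.

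Among 13 other ITIM receptors of myeloid cells with a value, 12 reached the level needed for testing. Siglece did so in all 5 PLG samples and in 2 untreated ones, and is left out of the count. Of the other 11, 9 fell, 1 rose and 1 did not pass, against 31.3% lower and 29.1% higher over all genes tested, and their median log2 fold change was -0.77. Cd300a fell from 15.7 ± 1.09 to 1.94 ± 0.417 FPKM (-2.52), Clec4a2 from 14.5 ± 1.10 to 2.83 ± 0.514 FPKM (-2.02) and Lair1, a collagen receptor, from 6.62 ± 0.706 to 2.34 ± 0.132 FPKM (-1.19). Pilra rose from 17.9 ± 2.93 to 48.9 ± 2.53 FPKM (1.41). The limma adjusted p (Benjamini-Hochberg) of these 4 changes was at most 1.60e-08. Siglece, a sialic acid receptor, read 0.638 ± 0.508 FPKM in untreated and 11.1 ± 1.75 FPKM in PLG samples. Milr1, at 18.2 ± 1.79 and 18.6 ± 0.683 FPKM, did not pass.

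Of the 32 genes for actin machinery of the phagocytic cup, the structure that engulfs antibody-coated particles, 12 rose, 11 fell and 9 did not pass, against 29.1% higher and 31.3% lower over all genes tested. Their median was 0.04. The number that fell was 20 with quantile normalization and 4 with scaling to a common sum. Fyb, an adaptor, rose from 8.89 ± 0.661 to 23.3 ± 0.960 FPKM (1.30), the motor Myo1g from 54.5 ± 3.12 to 135 ± 3.84 FPKM (1.29) and the filament elongation factor Vasp from 49.2 ± 3.46 to 91.2 ± 3.09 FPKM (0.88). Dock2, an activator of Rac, fell from 41.0 ± 1.28 to 20.6 ± 0.919 FPKM (-0.96), the severing protein Gsn from 76.6 ± 3.27 to 39.8 ± 1.95 FPKM (-0.93) and the kinase Pak1 from 8.13 ± 1.74 to 3.08 ± 0.516 FPKM (-1.15). The largest limma adjusted p (Benjamini-Hochberg) of these 6 changes was 3.72e-06. The abundant Cfl1 and Cdc42 did not pass, at 262 ± 12.5 and 272 ± 11.3 FPKM and at 180 ± 6.13 and 177 ± 6.78 FPKM.

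**Figure D4:**
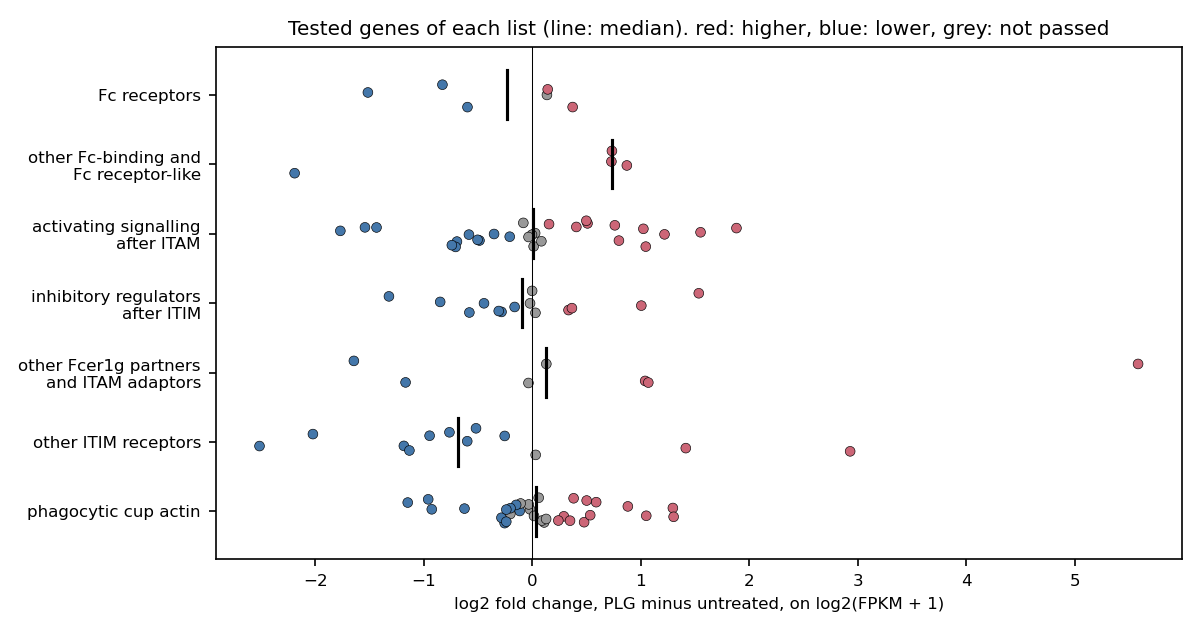
Log2 fold change (horizontal axis, PLG minus untreated) of each tested gene of the Fc receptors and of 6 other lists, one line of points per list, with the list's median (black line); red genes rose, blue fell and grey did not pass. The median lines cover all tested genes, including Cd247 and Siglece, which the counts in the text leave out. The ITIM receptors lie mostly below 0 (median -0.68), the genes after ITAM receptors spread evenly about 0 (median 0.00), and Clec4e stands at 5.58.

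Genes beside the members on the chromosome were read as a description. Of 37 distinct neighbours, up to 5 on each side of each member, 25 were tested, of which 6 rose, 8 fell and 11 did not pass. Unlike the list counts, these keep genes with 1 group mean under the 1 FPKM needed for testing. They are Tomm40l, which fell (1.51 ± 0.366 and 0.739 ± 0.192 FPKM), and H3c15, which did not pass (0.732 ± 0.419 and 1.32 ± 0.395 FPKM). Over all genes tested 60.4% passed, 29.1% higher and 31.3% lower, so these counts are not read as particular to the neighbours. Only Txnip, 264 kb from Fcgr1, passed with a log2 fold change of 1 or more in size, falling from 39.7 ± 2.73 to 18.3 ± 1.16 FPKM (-1.08, limma, Benjamini-Hochberg adjusted p = 2.46e-09).

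The genes most like each member were sought among 8514 by Pearson correlation of log2(FPKM + 1) over the 10 samples. Closest to Fcgr3 were Lmbrd2 (r = 0.998), Slc36a4 (0.996) and Pkdcc (0.994), and closest to Fcgrt were Dnmbp (0.989), Lonrf3 (0.986) and Tns3 (0.986). For Fcer1g they were Ubr4 (0.979), Arhgap31 (0.977) and Slc7a8 (0.976). For Fcgr4 they were Plekhg1 (0.952), Fkbp15 (0.947) and Ftl1 (0.945), for Fcgr2b Smad1 (0.9303), Park7 (0.920) and Polr2g (0.915), and for Fcgr1 Fads2 (0.920), Ppp1r10 (0.8995) and Stam2 (0.897). After each group's mean was subtracted, Lmbrd2 stayed closest to Fcgr3 (0.947) and Smad1 stayed among the 3 closest to Fcgr2b (0.901), while the other closest genes were replaced. Fcgr1 was then closest to Atp9b (0.972), Ly6a (0.970) and Spata13 (0.961). These values carry no p, since each point is a library that both genes share, the difference between the groups enters r, and the genes were picked as the highest of all those compared.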

How the data were processed

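RNA-seq was measured in 10 samples, 5 untreated and 5 with PLG, grouped by the treatment in their labels. The authors deposited FPKM per protein-coding gene with gene length and position, per the file headers. Per the submitters' processing notes the build was GRCm38.p6 and the tools were STAR 2.7.3a, featureCounts 2.0.0, cutadapt 2.10, FastQC 0.11.9 and DESeq2 1.24.0, with no role or order. The molecule was total RNA, per the labels.

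From the deposited FPKM, log2(FPKM + 1) was computed for 9997 genes with at least 1 FPKM in 5 or more samples, which included all 6 Fc receptors. Groups were compared with limma 3.58.1 (R 4.3.3) with an intensity trend and no covariate, at a Benjamini-Hochberg threshold of 0.05. The procedure was first tested on simulated data. Members also had a two-sided exact permutation test. Low FPKM multiplied by gene length fell on whole reads (tolerance 0.1) in 100% of the 576 to 2004 values examined per sample, which gave depth. Replicates of a group correlated at 0.976 to 0.995 and shared at most 0.380% of values. Same-numbered samples deviated together with correlations of -0.121 to 0.0988, so the numbers were not taken to pair them.

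The members and lists were chosen with earlier results of these data known. Named genes were the members, up to 3 genes that rose and 3 that fell per list by smallest p, up to 2 abundant genes that did not pass, neighbours that passed with a log2 change of at least 1, and the 3 most similar genes per member. Genes of lists that are not in the table were not analysed here. Some items that the rule names are not reported here. Promoter windows came from RefSeq and transcripts from GENCODE M21. Alternatives changed the pseudocount, filter, scaling, moderation, weights and samples, used limma-voom on the reads so recovered, or added a replicate block. Chosen after seeing the data were scaling without the repeat-like gene models and leaving out the 3 samples lowest in them.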

Additional observations from a re-analysis of the deposited data

How the results depend on the processing

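Fcgr3 (-0.87 to -0.55) and Fcgrt (-1.87 to -0.89) kept their direction and passed in all 24 alternatives, and Fcgr4 (-1.03 to -0.45) in the 23 that gave a value, since it fell under the 5 FPKM filter. Fcer1g passed in all but quantile normalization (0.087, adjusted p = 0.171). Fcgr1 did not pass except without untreated 2 (0.26; leaving out each sample gave 0.013 to 0.26). Fcgr2b lost its call with scaling to a common sum (0.19, adjusted p = 0.192), the same without repeat-like gene models (0.075, 0.212), eBayes without trend (0.14, 0.0676), the replicate block (0.14, 0.0799) and without the 3 samples lowest in repeats (0.13, 0.0806), reversed with quantile normalization (-0.027), and ranged from 0.11 to 0.16 when each sample was left out (lost without untreated 1 or 3 or PLG 1 or 3). The cause was not tested. The replicate block called 5785 genes against 6040, of which 5708 were shared, and it changed no other member's call. Only replicate 1 correlated best with its own number. As log2 of the ratio of means, the activating to inhibitory difference of -0.70 was -0.029 for Fcgr1, -1.20 for Fcgr4 and -0.25 without Fcgr3, and -0.74 to -0.66 when each sample was left out. List counts, here with Cd247 and Siglece, moved over 1.5 times for actin genes that fell (11; 20 with quantile normalization, 4 with a common sum), inhibitory regulators that fell (7; 4 with a common sum), Fc-binding genes that rose (3; 5 without filter), ITIM receptors that rose (2; 1 without the 3 samples) and Fcer1g partners that fell (2; 1 with the 5 FPKM filter). Depth limits Fcgr4 most, with 83 reads in 1 sample.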

Other observations

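Several Fc-binding and Fcer1g-paired genes lay under the level at which genes were tested, and are given as values only. Fcmr, the IgM receptor, read 0.0608 ± 0.136 FPKM in untreated and 0.605 ± 0.0963 FPKM in PLG samples, with groups that did not overlap. Gp6, the platelet collagen receptor that pairs with Fcer1g, was listed at 0 in all untreated samples and at 0.289 ± 0.0969 FPKM in PLG samples. Of 4 megakaryocyte and platelet markers, Pf4 read 48.3 ± 6.19 FPKM in untreated and 98.3 ± 6.89 FPKM in PLG samples and Ppbp went the other way, from 10.7 ± 1.55 to 6.53 ± 1.248 FPKM, while Itga2b and Gp9 read at most 0.542 FPKM in either group mean. Fcrl1, a receptor-like gene of B cells, read 0.451 ± 0.341 and 0.798 ± 0.205 FPKM with overlapping groups, while the 5 B cell markers were each under 0.5 FPKM in both groups. The mast cell chain Ms4a2, the low-affinity IgE receptor Fcer2a and the polymeric immunoglobulin receptor Pigr were at or below 0.152 FPKM in both group means.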
